A study of Homo sapiens with 18 samples.

Results

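The nuclear-encoded subunit genes of the 5 oxidative phosphorylation complexes were described in 2 human melanoma cell lines, A375M2 and C32, profiled on Affymetrix expression arrays. The members are the genes with a single current symbol of the NDUFA, NDUFB, NDUFC, NDUFS, NDUFV, UQCR, COX4 to COX8, ATP5F, ATP5M or ATP5P families, or of the SDH group, without the NDUFAF assembly factors. This gave 66 of the 11232 genes measured by a probe set with 1 gene symbol: 31 in complex I, 3 in complex II (SDHA, SDHC and SDHD), 5 in complex III, 12 in complex IV and 15 in complex V. A probe set is a group of short probes for one transcript, and each gene was read from the probe set with the highest mean. All 66 were at log2 4 or more on at least 3 arrays, the limit for testing. SDHA, COX4I1, COX7C, ATP5F1C, ATP5ME and ATP5MG were read by probe sets of a type that can also bind related sequences, so their values are uncertain.

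Oxidative phosphorylation runs in the inner mitochondrial membrane. Complexes I and II take electrons from NADH and succinate, complex III passes them to cytochrome c, and complex IV hands them to oxygen, while ATP synthase (complex V) uses the proton gradient that results. Most subunits are encoded in the nucleus and a small number in the mitochondrial genome. In melanoma, nuclear respiratory genes are known targets of the coactivator PPARGC1A.

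Each group holds 3 arrays of cells transduced with lentivirus. In A375M2 the groups are an FHL2 shRNA pool (A375M2 shFHL2), an NFYA shRNA (A375M2 shNFYA), full-length PMEL (A375M2 PMEL) and GFP (A375M2 GFP), and in C32 they are FHL2 shRNA (C32 shFHL2) and GFP (C32 GFP). FHL2 is a LIM-domain scaffold protein, NFYA the regulatory subunit of NF-Y, a factor that binds CCAAT letters, and PMEL a structural protein of melanosomes. The treatment notes describe puromycin selection for the FHL2 shRNA cells, in which 3 constructs were pooled, and blasticidine selection for the PMEL and empty-vector cells, whose vector drives its insert from a CMV promoter; sorted pools rather than stated single clones were grown to RNA extraction. The labels do not say which GFP vector the GFP arrays hold, no group carries a non-targeting shRNA, and no details are given for the NFYA and C32 arms. The design notes name 3 separate experiments for A375M2, while nothing says how the C32 samples were replicated, and the p-values there cover the spread among these arrays, which may be technical.

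The 18 columns of the table are not 18 independent arrays. Over the 16775 probe sets at a mean of log2 6 or more, the values of C32 GFP replicate 3 equalled the average of the other 2 C32 GFP arrays to within an SD of 0.00719, against 0.107 to 0.171 for the other 17 arrays, and it was left out of the fit. A375M2 GFP replicate 3 and A375M2 PMEL replicate 3 each deviated from the mean of replicates 1 and 2 of their own group with an SD of 0.114. Their deviations were mirror images: the correlation was -0.998, and their sum had an SD of 0.00644, against 0.158 to 0.247 for the 119 other pairs of arrays from different groups, C32 GFP replicate 3 not counted. The sum of these 2 arrays is therefore nearly fixed by the other 4 arrays of their groups, and they do not count as 2 separate replicates. The labels do not say how these 3 columns were made. For each comparison that uses A375M2 GFP or PMEL, the number of members called is given with and without both replicate 3 arrays. The other counts, such as those by complex, role, list, motif, 2-fold change or overlap of arrays, rest on the 17 arrays alone.

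Low values also split the arrays into sets. Values under log2 4 that were equal to the last digit were shared among A375M2 GFP and PMEL replicates 1 and 2, with 934 between the 2 A375M2 GFP arrays, and between their replicate 3 arrays, which shared 514. C32 GFP replicate 3 shared 215 with each of these 2 replicate 3 arrays. None of the A375M2 GFP and PMEL arrays shared such a value with an A375M2 shRNA array. C32 GFP replicates 1 and 2 and the C32 shFHL2 arrays shared 0 with the A375M2 GFP arrays, while these 2 C32 GFP arrays shared 40 with each A375M2 shFHL2 array and 48 with each A375M2 shNFYA array. In the comparisons of A375M2 shFHL2, A375M2 shNFYA and C32 GFP with A375M2 GFP, group and array set cannot be told apart.

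Targets and quality differed between groups as follows. On the log2 scale FHL2 differed from GFP by -4.04 in A375M2 shFHL2 and by -5.24 in C32 shFHL2. NFYA differed by -2.06 in A375M2 shNFYA and by -0.73 in A375M2 shFHL2, and PMEL by 3.38 in A375M2 PMEL. Of the melanocyte markers 7 of 7 measured genes fell in A375M2 shFHL2, with 44.3% of all genes lower. In A375M2 shNFYA 6 of 7 fell, with 43.3% of all genes lower, and in C32 shFHL2 6 of 7, with 30.4% lower. Of 8 listed keratinocyte and epithelial markers 4 were measured. All 4 rose in A375M2 shFHL2 and A375M2 shNFYA, with 41.1% and 43.5% of all genes higher, and 0 were called in C32 shFHL2. Fibroblast markers fell in 4 of 5 and rose in 1 in both A375M2 shRNA groups, and 1 of 2 leukocyte markers rose there. The 3 probe sets for 18S ribosomal RNA averaged 14.10 to 14.22 on the A375M2 shFHL2 arrays and 14.07 to 14.29 on the A375M2 shNFYA arrays, against 12.48 to 12.55 on A375M2 GFP. They averaged 11.06 to 11.10 on A375M2 PMEL, and 13.83 to 14.01 on C32 shFHL2, against 13.38 and 13.19 on C32 GFP. The poly-A spike-in controls averaged 5.55 to 5.65 on C32 shFHL2, against 8.85 and 9.27 on C32 GFP. On A375M2 shFHL2 they averaged 6.10 to 6.33 and on A375M2 shNFYA 6.44 to 6.52, against 6.92 to 6.94 on A375M2 GFP. The hybridisation spike-in controls averaged 11.40 to 11.52 on C32 shFHL2, against 12.35 and 12.52 on C32 GFP. They averaged 11.57 to 11.77 on A375M2 shFHL2 and 11.65 to 11.92 on A375M2 shNFYA, against 11.63 to 11.74 on A375M2 GFP. The ACTB probe sets read 0.97 to 1.12 more at the 3′ than the 5′ end (log2) on A375M2 shFHL2 and 1.11 to 1.27 on A375M2 shNFYA, against 0.53 to 0.77 on A375M2 GFP, and 0.83 to 0.91 on C32 shFHL2, against 1.06 and 1.09 on C32 GFP. The same measure for GAPDH was -0.10 to -0.07 on A375M2 shFHL2 and -0.04 to -0.01 on A375M2 shNFYA, against 0.07 to 0.10 on A375M2 GFP, and -0.12 to -0.08 on C32 shFHL2, against 0.04 and 0.03 on C32 GFP. The part of these differences in the results below was not tested.

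Upstream sequence is shown for 5 members, which were picked after their values were seen. ATP5MC1, COX6B1 and NDUFV3 are 3 of the members that were lower in both A375M2 shRNA groups. COX7B2 is an isoform that was higher there, and UQCRC1 had the largest fall in complex III. Each line is the 250 bases before the RefSeq gene start (build GRCh38.p14), read 5′ to 3′ on the gene's strand. Capitals mark CCAAT or its complement ATTGG, the letters NF-Y recognises, and matches to the NRF1-type motif, GCGCA then any base then GCGC.
ATP5MC1: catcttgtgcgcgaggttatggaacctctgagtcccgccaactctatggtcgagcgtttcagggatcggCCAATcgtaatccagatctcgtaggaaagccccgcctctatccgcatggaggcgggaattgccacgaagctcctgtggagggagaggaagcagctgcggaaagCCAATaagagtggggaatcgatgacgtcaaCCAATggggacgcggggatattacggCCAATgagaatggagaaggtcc
COX6B1: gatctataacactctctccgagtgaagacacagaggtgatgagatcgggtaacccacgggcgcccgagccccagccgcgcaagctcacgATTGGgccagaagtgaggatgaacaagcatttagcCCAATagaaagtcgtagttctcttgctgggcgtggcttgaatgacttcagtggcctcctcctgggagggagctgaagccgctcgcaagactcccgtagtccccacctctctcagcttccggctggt
NDUFV3: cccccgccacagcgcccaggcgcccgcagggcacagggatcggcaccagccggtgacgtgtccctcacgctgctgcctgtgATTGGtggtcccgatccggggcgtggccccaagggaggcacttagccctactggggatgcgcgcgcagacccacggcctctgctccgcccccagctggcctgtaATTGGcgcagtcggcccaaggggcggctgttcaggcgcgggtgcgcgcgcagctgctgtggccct
COX7B2: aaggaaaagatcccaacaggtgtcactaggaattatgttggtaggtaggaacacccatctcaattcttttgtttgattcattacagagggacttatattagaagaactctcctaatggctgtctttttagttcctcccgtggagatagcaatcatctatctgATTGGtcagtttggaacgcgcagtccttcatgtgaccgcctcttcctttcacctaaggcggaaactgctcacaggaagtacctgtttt
UQCRC1: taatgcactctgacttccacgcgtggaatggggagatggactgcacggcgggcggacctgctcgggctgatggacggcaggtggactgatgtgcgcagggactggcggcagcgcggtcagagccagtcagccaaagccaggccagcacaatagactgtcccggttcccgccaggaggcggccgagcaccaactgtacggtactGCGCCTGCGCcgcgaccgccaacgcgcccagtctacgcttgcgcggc

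ATP5MC1 lies on the plus strand at chr17:48892537-48892786, COX6B1 on the plus strand at chr19:35648073-35648322, NDUFV3 on the plus strand at chr21:42893059-42893308, COX7B2 on the minus strand at chr4:46909246-46909495 and UQCRC1 on the minus strand at chr3:48609647-48609896. These windows hold 4, 2, 2, 1 and 0 CCAAT matches in that order, and UQCRC1 holds 1 NRF1-type match. The 5 do not stand for the members. NDUFS7, NDUFA10 and ATP5F1A, also lower in both A375M2 shRNA groups, hold 0 CCAAT matches in their windows. A window was given for 58 of the 66 members, all but ATP5F1B, ATP5F1D, ATP5MC3, COX6C, NDUFB5, NDUFB9, SDHC and UQCRB. All motifs were searched on both strands, and windows may overlap where genes start close together. CCAAT occurred in 18 of the 58 (31.0%), against 32% of all 35116 promoters in the RefSeq table. The NRF1-type motif occurred in 12 (20.7%, against 5.07% of all promoters), the ETS-type CCGGAAG in 14 (24.1%, against 8.52%) and the E-box CACGTG in 6 (10.3%, against 6.34%). The members' windows had a median GC content of 61.2%, against 58.0% over all windows. A match is a description of letters and not a binding site.

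The members were among the brightest genes on the arrays. Their median level was 13.19 (log2), against 8.97 over the 10935 genes tested, and 49 of 66 averaged log2 12 or more. Member means ran from 6.81 for the probe set of ATP5PB, the peripheral-stalk b subunit, to 15.20 for that of ATP5F1A, the catalytic-head alpha subunit. Bright probe sets sit near the top of the range, where differences can be compressed, and these are probe brightnesses, which compare one gene between arrays and do not rank transcript levels between genes. In bulk RNA, fewer cells that express a gene and less RNA per cell cannot be told apart.

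**Figure D1:**
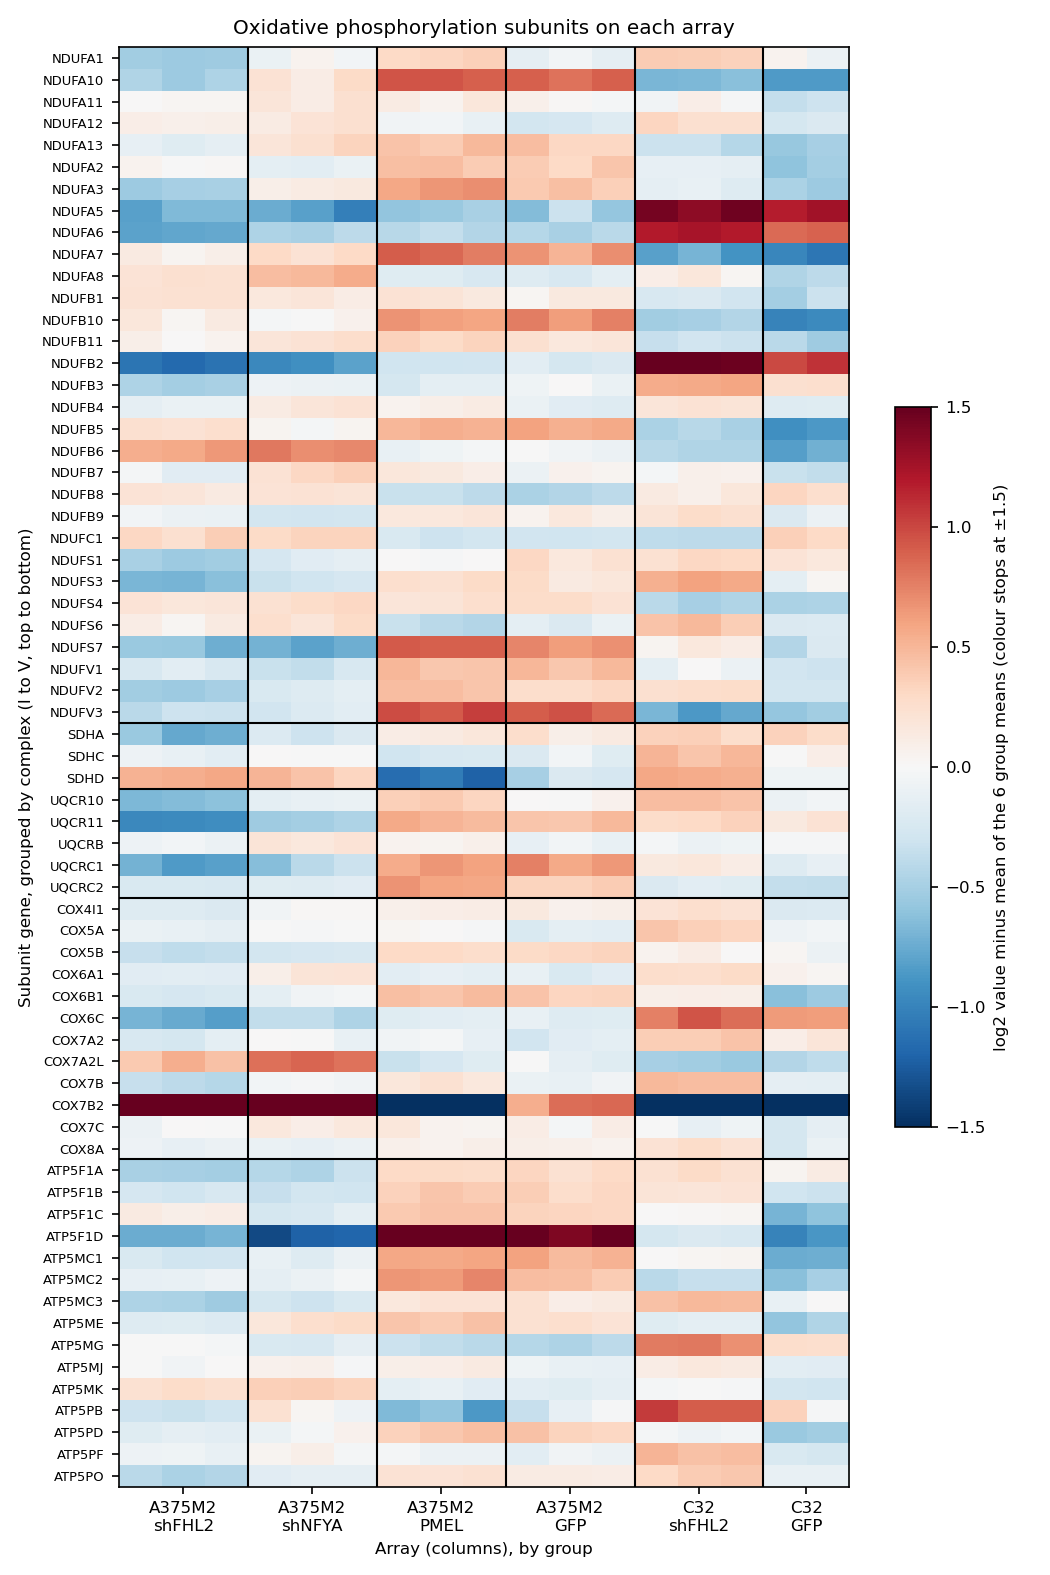
Each row is a subunit gene and each column 1 of the 17 arrays used; colour is the log2 value minus the mean of the 6 group means of that gene. In A375M2, rows such as ATP5F1D, NDUFS7 and UQCRC1 are lower in both shRNA groups than in PMEL and GFP, and in C32 most rows are higher in shFHL2 than in GFP.

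In C32, FHL2 shRNA was accompanied by small rises across all 5 complexes. Of 66 members 55 were higher and 3 lower at an adjusted p under 0.05 in limma, with 62.6% of all genes called (32.3% higher and 30.4% lower). The median difference of the members was 0.36 (log2), against 0.00 over all genes tested. Of the 1207 genes at a mean of log2 12 or more, where most members lie, 47.6% were higher and 31% lower. No member was called with a change of 2-fold or more, against 8.56% of all genes (3.52% higher and 5.04% lower). The arrays of the 2 groups did not overlap for 63 of 66 members (74.6% of all genes). C32 GFP holds 2 arrays in this comparison, and the A375M2 replicate 3 arrays do not enter its means: the same 58 members were called without them.

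All 15 complex V members rose in C32 shFHL2, between 0.17 and 0.79. ATP5PF, coupling factor 6 of the peripheral stalk, was at 14.67, 14.60 and 14.62 in C32 shFHL2, against 13.93 and 13.90 in C32 GFP. It was thus higher on every shFHL2 array, by 0.72 ± 0.04 (SE; limma adjusted p = 4.34e-11). ATP5F1D, the delta subunit of the central stalk, was at 10.25, 10.31 and 10.28, against 9.51 and 9.65. Its groups did not overlap either, and the difference was 0.70 ± 0.06 (SE; limma adjusted p = 5.71e-09). ATP5MC1, which encodes a copy of the membrane c-ring subunit, was at 10.970, 10.996 and 11.007 in C32 shFHL2 and at 10.22 and 10.23 in C32 GFP, a rise of 0.77 ± 0.04 (SE; limma adjusted p = 3.92e-11). The largest value, 0.79 for ATP5PB, rests on its dim probe set.

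In complex I 25 of 31 members rose in C32 shFHL2 and 3 fell. NDUFS3, a core subunit of the arm that carries electrons to ubiquinone, was at 12.22, 12.29 and 12.26 in C32 shFHL2 and at 11.55 and 11.72 in C32 GFP. The arrays did not overlap, and the difference was 0.62 ± 0.05 (SE; limma adjusted p = 7.68e-09). NDUFS6, a zinc-binding accessory subunit, had the largest rise, 0.64. The 3 that fell were NDUFC1, NDUFB8 and NDUFV3. NDUFC1, a small accessory subunit of the membrane arm, was at 13.08, 13.07 and 13.07 in C32 shFHL2 and at 13.82 and 13.76 in C32 GFP, lower by more than the spread of either group and the largest change of any complex I member (log2 -0.71 ± 0.04, SE; limma adjusted p = 1.19e-11). NDUFV3, which encodes an accessory subunit of the NADH-binding module, fell by 0.22, and NDUFB8, a membrane-arm subunit, fell by 0.16. Another probe set of NDUFV3 and of NDUFB8 had the opposite sign.

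In complex II, SDHD, the small membrane anchor, rose by 0.62 and SDHC, the large membrane anchor, by 0.42 in C32 shFHL2. SDHA, the flavoprotein, differed by 0.01 (limma adjusted p = 0.921). In complex III 4 of 5 rose, with UQCR10, a small subunit, highest at 0.52. UQCRC1, a large core protein on the matrix side, rose by 0.30. In complex IV 9 of 12 rose and none fell, led by COX6B1, a subunit facing the intermembrane space, at 13.71, 13.72 and 13.70 in C32 shFHL2 against 12.99 and 13.08 in C32 GFP. Its groups were clearly apart, by 0.67 ± 0.04 (SE; limma adjusted p = 1.27e-10).

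In A375M2 the direction was the other way for most members. With FHL2 shRNA 13 members were higher and 42 lower than in A375M2 GFP, where 85.4% of all genes were called (41.1% higher and 44.3% lower). The members' median was -0.34 (log2), against -0.04 over all genes. The total of 55 called is a share near the background, and the split by direction depends on the scaling. With each array centred on its median, 21 members were higher and 37 lower, against 46.9% and 38.7% of all genes. The median of the members was then -0.20, against 0.10 over all genes. In the main fit 44.4% of the 1207 bright genes were higher and 42.3% lower. Arrays of the 2 groups did not overlap for 56 members (86.9% of all genes), and 7 members were called at 2-fold or more, 1 higher and 6 lower (31.4% of all genes, 15.2% higher and 16.2% lower). Without both replicate 3 arrays 12 were higher and 42 lower, with 83.2% of all genes called, and 53 of the 55 members were again called in the same direction. NDUFB7 and ATP5MJ were no longer called, and NDUFS4 was added.

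**Figure D2:**
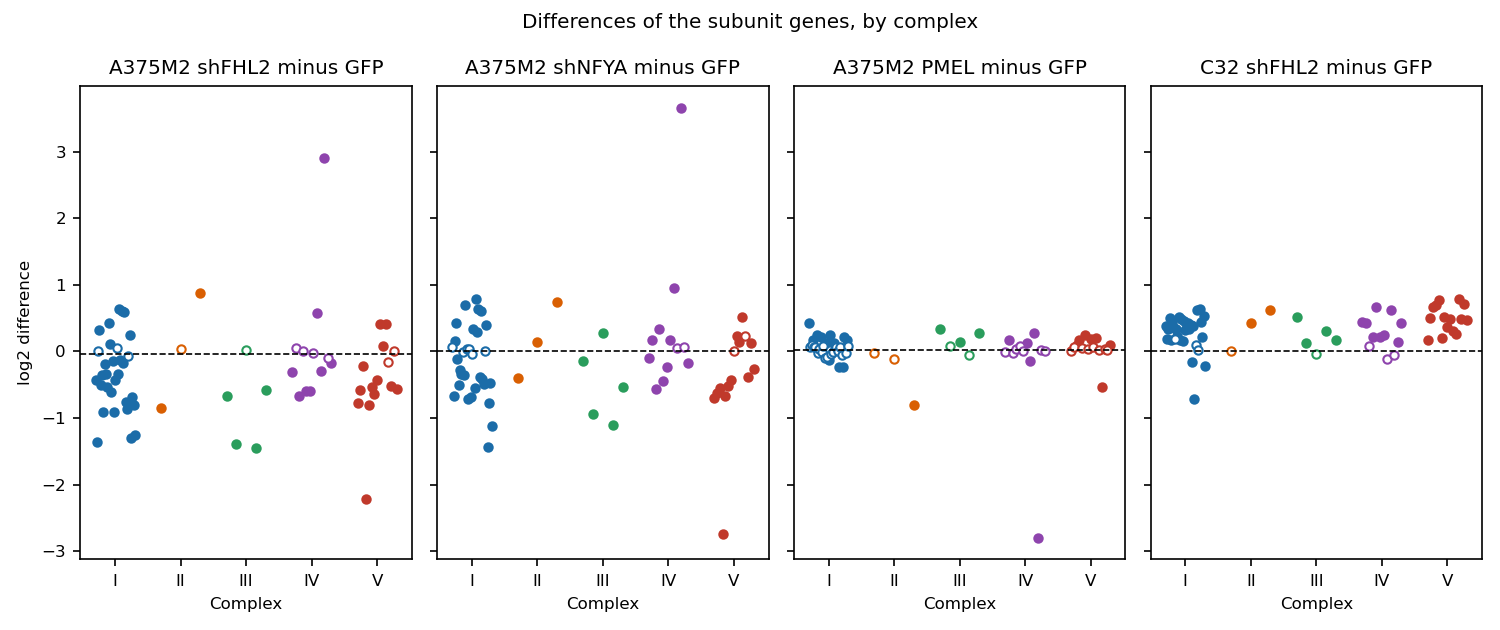
Log2 differences of each member by complex, in 4 comparisons; filled points passed the limma test at an adjusted p under 0.05, open points did not, and the dashed line is the median of all genes tested. In C32 all 15 complex V points are filled and above 0, and in A375M2 shFHL2 10 of 15 are filled and below 0.

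By roles assigned after the values were seen, with 44.3% of all genes lower, members were then counted in A375M2 shFHL2. The 5 core subunits of the NADH and iron-sulphur arm of complex I that were measured (NDUFV1, NDUFV2, NDUFS1, NDUFS3 and NDUFS7) fell by 0.68 to 1.30. NDUFS7, which carries the last iron-sulphur cluster before ubiquinone, was at 9.63, 9.61 and 9.46 in A375M2 shFHL2 and at 10.91, 10.81 and 10.87 in A375M2 GFP. Every shFHL2 array was below every GFP array, with a difference of -1.30 ± 0.06 (SE; limma adjusted p = 3.76e-13). NDUFA10, an accessory subunit of the kinase-like family, had the largest fall in complex I: 10.10, 10.01 and 10.10 in A375M2 shFHL2 against 11.45, 11.37 and 11.45 in A375M2 GFP. The difference was -1.35 ± 0.04 (SE; limma adjusted p = 3.36e-15).

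In complex V the 4 measured genes of the F1 part (the head and its central stalk) and the 3 c-ring genes all fell, as did 2 of 4 in the peripheral stalk. Of the other membrane subunits 3 of 4 rose. ATP5F1D had the largest fall of all 66 members. It was at 9.78, 9.78 and 9.82 in A375M2 shFHL2, against 12.07, 11.92 and 12.05 in A375M2 GFP. The groups were far apart, by -2.22 ± 0.05 (SE; limma adjusted p = 2.36e-17), and the second probe set of the gene gave -1.60. Among the small membrane subunits ATP5MK rose by 0.41, ATP5MJ by 0.08 and ATP5MG by 0.41, and ATP5ME fell by 0.42. ATP5MJ was no longer called without both replicate 3 arrays. A further ATP5MG probe set, at a mean of 11.4, gave -0.998, so its direction depends on the probe set.

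In complex III UQCRC1 was at 10.67, 10.54 and 10.57 in A375M2 shFHL2 and at 12.14, 11.95 and 12.04 in A375M2 GFP. The arrays did not overlap, with a difference of -1.45 ± 0.07 (SE; limma adjusted p = 4.83e-13). UQCR11, a small subunit, fell by 1.39 and UQCRC2, the other large core protein, by 0.58, while UQCRB, which helps to hold cytochrome b, differed by 0.03 and was not called. Another UQCRB probe set, at a mean of 9.31, gave 1.32. A dim UQCRC2 probe set, at a mean of 5.425, gave 0.15. In complex IV 6 of 12 fell, COX5B, a zinc-binding subunit, by most at 0.67, followed by COX6B1 at 0.60. A dimmer COX5B probe set, at a mean of 6.91, gave 0.25. COX5A, COX6A1, COX7A2 and COX7C were not called, with differences of 0.06, 0.00, -0.02 and -0.09.

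Members that rose in A375M2 shFHL2 were fewer. NDUFB6, a membrane-arm subunit, was at 13.15, 13.17 and 13.25, against 12.59, 12.54 and 12.51 in A375M2 GFP. It was higher on every shFHL2 array, by 0.64 ± 0.04 (SE; limma adjusted p = 2.35e-11). NDUFB8 was higher by 0.61 and NDUFC1 by 0.59. A dim NDUFB8 probe set, at a mean of 5.59, gave -0.84. COX7A2L, a factor that joins complexes III and IV into supercomplexes, was higher by 0.57. SDHD was at 13.14, 13.17 and 13.20 in A375M2 shFHL2 against 12.12, 12.40 and 12.37 in A375M2 GFP, with no overlap. It rose by 0.87 ± 0.06 (SE; limma adjusted p = 2.46e-10), whereas SDHA fell by 0.84. SDHC differed by 0.03 and was not called, and a further SDHC probe set, at a mean of 12.64, gave -0.34.

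COX7B2 is the testis-type isoform of COX7B, a small complex IV subunit, and it was the member with the widest spread of group means, whose lower end lies where the arrays give no measured level. Its values were 10.46, 10.52 and 10.51 in A375M2 shFHL2, 11.27, 11.21 and 11.29 in A375M2 shNFYA, 5.17, 4.57 and 4.68 in A375M2 PMEL and 7.39, 7.69 and 7.71 in A375M2 GFP. The 4 A375M2 groups did not overlap. On the C32 arrays it was at 3.44 on all 3 shFHL2 arrays and at 3.44 and 3.54 on C32 GFP, at the low end of the range, where no difference can be read. Its log2 difference from A375M2 GFP was 2.90 ± 0.12 in shFHL2, 3.66 ± 0.12 in shNFYA and -2.79 ± 0.12 in PMEL (SE; limma adjusted p = 1.75e-13, 4.44e-15 and 1.29e-11). The PMEL arrays had an SD of 0.32 and lie not far above log2 4, so the size of that fall is uncertain. The widely expressed isoform COX7B changed much less: -0.30 in shFHL2, 0.05 in shNFYA, not called, and 0.27 in PMEL. A dimmer COX7B probe set gave -0.17 in PMEL.

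**Figure D3:**
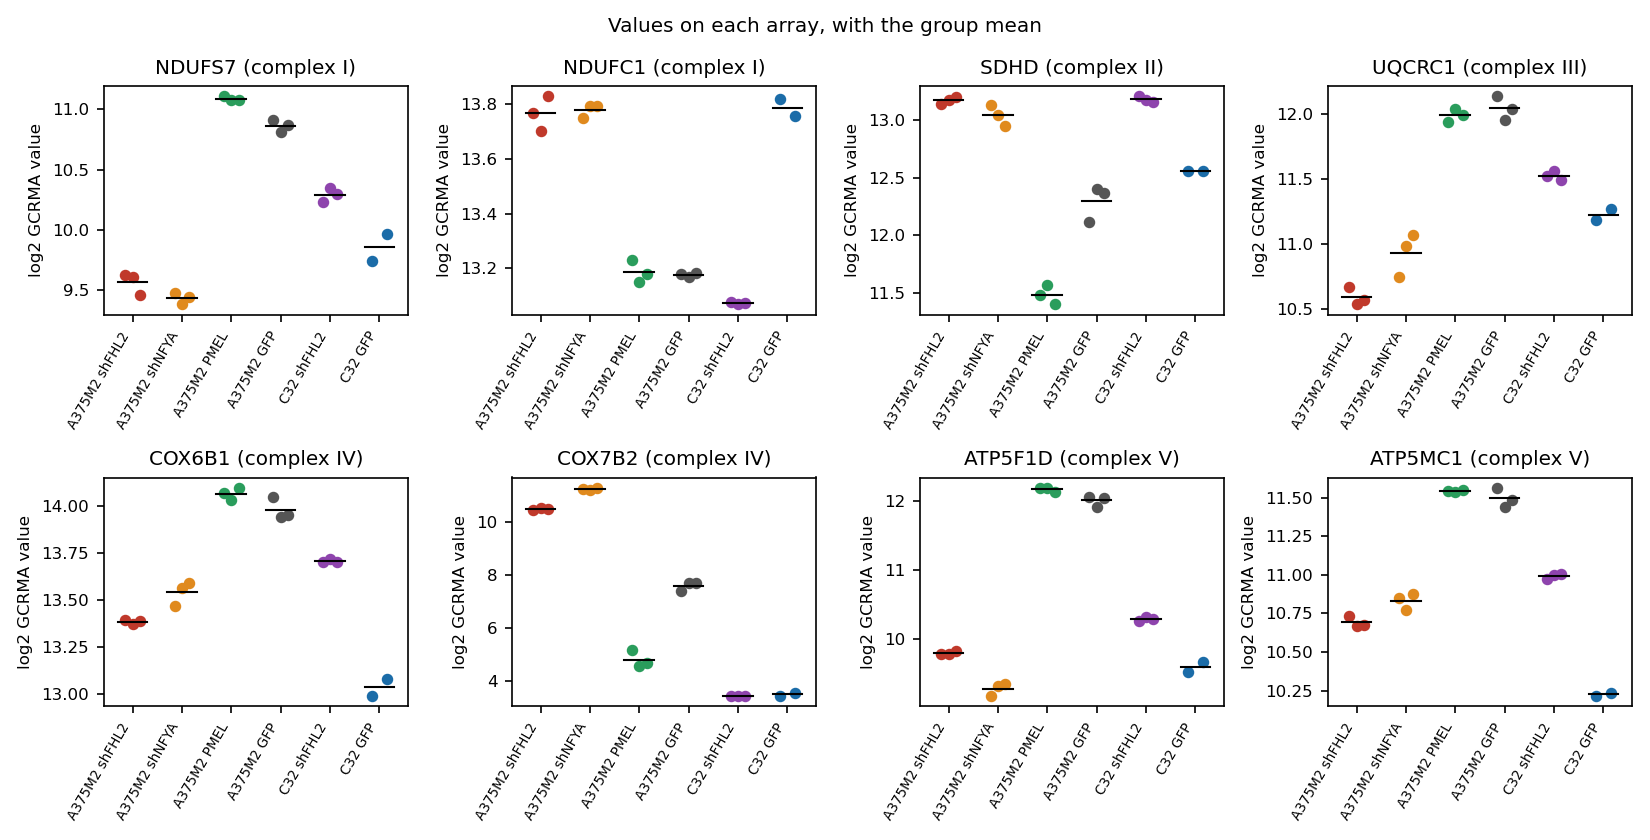
GCRMA log2 values of 8 members on each array, with lines at the group means; the y axes differ and do not start at 0. ATP5F1D, NDUFS7, UQCRC1, COX6B1 and ATP5MC1 are lower in both A375M2 shRNA groups than in A375M2 GFP, COX7B2 and SDHD are higher, and in C32 NDUFC1 is lower in shFHL2 than in GFP.

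With NFYA shRNA in A375M2, 21 members were higher and 35 lower than in A375M2 GFP, with 86.8% of all genes called (43.5% higher and 43.3% lower). The members' median was -0.13, against 0.00 over all genes, and of the 1207 bright genes 48% were higher and 41.3% lower. Arrays did not overlap for 56 members (87.1% of all genes), and 5 were called at 2-fold or more, 1 higher and 4 lower (35.8% of all genes, 17.3% higher and 18.5% lower). Centring each array on its median gave 31 higher and 31 lower, against 48.8% and 38.7% of all genes. The median of the members was then -0.004, against 0.13 over all genes. Without both replicate 3 arrays 22 were higher and 35 lower, with 84.7% of all genes called. All 56 calls were made again in the same direction, with ATP5PB added. This comparison shares the A375M2 GFP arrays with those of shFHL2 and PMEL.

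ATP5F1D was the member with the largest fall here too, at 9.17, 9.31 and 9.33 in A375M2 shNFYA. These arrays lay below all others, with a difference of -2.75 ± 0.05 from A375M2 GFP (SE; limma adjusted p = 8.00e-19). NDUFS7 was at 9.48, 9.38 and 9.45, also below every A375M2 GFP array, with a difference of -1.43 ± 0.06 (SE; limma adjusted p = 7.22e-14). UQCRC1 fell by 1.11, NDUFV3 by 1.12, UQCR11 by 0.94, NDUFA10 by 0.67 and ATP5F1A by 0.69. The same 5 core complex I genes, the 4 F1 genes (head and central stalk) and the 3 c-ring genes were each lower, with 43.3% of all genes lower. These roles were assigned after the values were seen, and the A375M2 GFP arrays are shared with the shFHL2 comparison, so this is no separate evidence. COX7A2L rose by 0.95, NDUFB6 by 0.79, SDHD by 0.74 and ATP5MK by 0.51.

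In the NFYA shRNA cells the members were also counted by CCAAT in the upstream window. Of the 18 with the letters 6 rose and 9 fell, with a median of -0.08, and of the 40 without them 13 rose and 20 fell, with a median of -0.07. No test was made of this split.

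Set directly against each other, A375M2 shFHL2 was below A375M2 shNFYA for most members. 47 were lower and 6 higher, with 70.1% of all genes called (38.4% lower and 31.8% higher), and the median was -0.15, against -0.03 over all genes. Quantile normalization gave 36 lower and 13 higher, against 38.4% and 32.5% of all genes. Of the 1207 bright genes 42.8% were lower and 33.7% higher. Arrays did not overlap for 56 members (74.1% of all genes), and none was called at 2-fold or more (10.4% of all genes, 4.01% lower and 6.37% higher). The arrays of these 2 groups come from 1 set by their shared low values, and 52 of the 53 calls were made again without both A375M2 replicate 3 arrays. The log2 difference, A375M2 shFHL2 minus A375M2 shNFYA, was -0.69 for NDUFA10, -0.63 for NDUFA3, a small accessory subunit, -0.53 for UQCR10 and -0.76 for COX7B2. ATP5F1D was higher in A375M2 shFHL2, by 0.52 ± 0.05 (SE; limma adjusted p = 4.44e-08), and ATP5F1C, the central-stalk gamma subunit, by 0.33.

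The differences with PMEL were small. In A375M2 PMEL 21 were higher and 7 lower than in A375M2 GFP, with 39.9% of all genes called (22.1% higher and 17.8% lower), and the median was 0.06, against 0.02 over all genes. Of the 1207 bright genes 22.3% were higher and 23.6% lower. Arrays did not overlap for 32 members (49.8% of all genes), and 1 member, COX7B2, was called at 2-fold or more (2.13% of all genes, 0.512% higher and 1.62% lower). The comparison rests most on the arrays that mirror each other. Without both replicate 3 arrays 20 were higher and 7 lower, with 29.7% of all genes called, and 24 of the 28 calls were made again in the same direction. NDUFB11, NDUFB7, ATP5F1C and ATP5PO were no longer called, and NDUFA2, NDUFB8 and UQCR11 were added.

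The largest differences between A375M2 PMEL and A375M2 GFP were those of COX7B2 and SDHD. SDHD was at 11.48, 11.57 and 11.40 in A375M2 PMEL, below every GFP array. The difference was -0.81 ± 0.06 (SE; limma adjusted p = 1.83e-08) and -0.73 without the replicate 3 arrays. The value of COX7B2 was -2.79, and -2.67 without these arrays. ATP5PB, on its dim probe set, had -0.54, and -0.39 without them. NDUFA1, a small accessory subunit, was at 13.28, 13.30 and 13.34 in A375M2 PMEL, against 12.85, 12.95 and 12.85 in A375M2 GFP. Its arrays did not overlap, and it was higher by 0.43, or by 0.40 without these arrays.

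The FHL2 shRNA difference itself was not the same in the 2 lines. The C32 difference minus the A375M2 difference was called for 61 of 66 members, 54 positive and 7 negative, with 80.2% of all genes called (42.1% positive and 38.1% negative). Its median was 0.76 over the members, against 0.06 over all genes. Of the 1207 bright genes 48.1% were positive and 37.9% negative. A difference of 2-fold or more was called for 20 members, 18 positive and 2 negative (34% of all genes, 17.3% positive and 16.7% negative). The same 61 members were called without both replicate 3 arrays. Of the 66 members 37 rose in C32 shFHL2 and fell in A375M2 shFHL2, 9 rose in both and 1 fell in both. Another 2 fell in C32 and rose in A375M2. Over all genes 32.3% were higher in C32 shFHL2 and 44.3% lower in A375M2 shFHL2. The share of all genes with both calls was not counted, so the 37 has no background beside it. For ATP5F1D the 2 differences were 0.70 in C32 and -2.22 in A375M2, 2.92 ± 0.07 apart (SE; limma adjusted p = 4.62e-16). UQCRC1 followed at 1.75, NDUFS7 at 1.73, ATP5MC1 at 1.57 and NDUFA10 at 1.54. The 7 negative members were NDUFB6, NDUFB8, NDUFC1, SDHD, COX7A2L, COX7B2 and ATP5MK, and the 2 that fell in C32 and rose in A375M2 were NDUFC1 and NDUFB8. NDUFC1 had -0.71 in C32 and 0.59 in A375M2, a difference of -1.30 ± 0.05 (SE; limma adjusted p = 5.27e-14). SDHD rose in both lines.

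**Figure D4:**
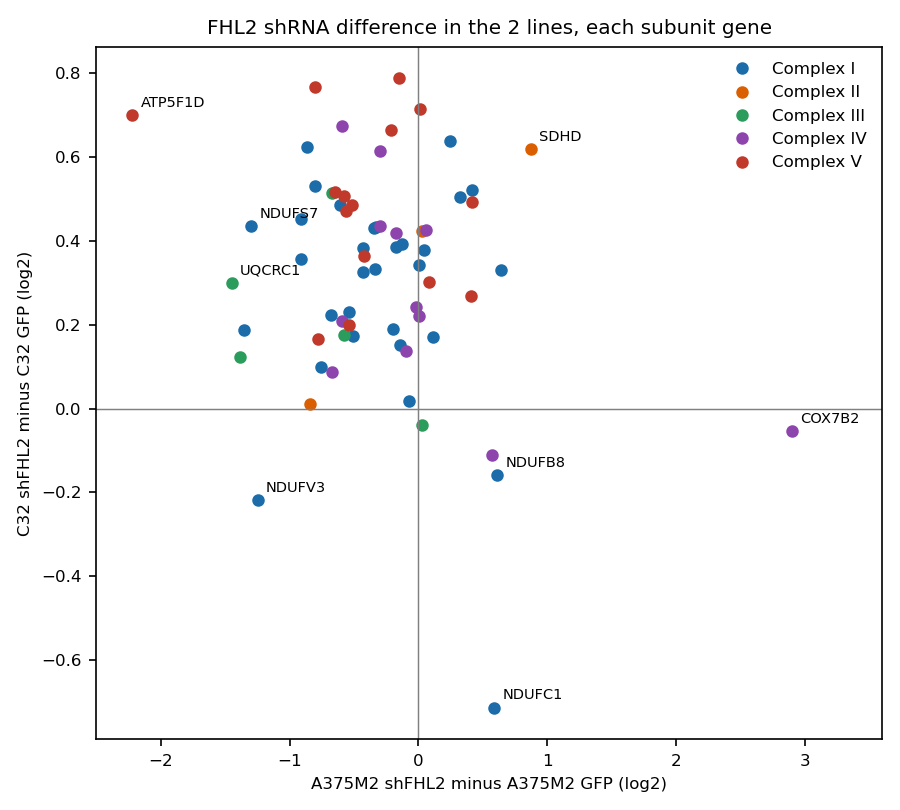
Each point is a member, with the log2 difference of FHL2 shRNA from GFP in A375M2 on the x axis and in C32 on the y axis; colours are complexes. 37 members were called lower in A375M2 and higher in C32, in the upper left, with ATP5F1D farthest left, and NDUFC1 lies in the lower right. Over all genes 44.3% were lower in A375M2 and 32.3% higher in C32, and the share with both calls was not counted.

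The lines also differed without knockdown, in a comparison that crosses array sets, so that line and set cannot be told apart. In C32 GFP 16 members were higher and 43 lower than in A375M2 GFP, with 85.9% of all genes called (38.7% higher and 47.2% lower), and the median was -0.26, against -0.10 over all genes. Of the 1207 bright genes 44.5% were higher and 47.4% lower. Arrays did not overlap for 61 members (89.9% of all genes), and 12 were called at 2-fold or more, 3 higher and 9 lower (43.1% of all genes, 18.3% higher and 24.8% lower). Centring each array on its median gave 25 higher and 30 lower, against 45% and 41% of all genes. The median of the members was then -0.06, against 0.10 over all genes. Without both replicate 3 arrays 14 were higher and 42 lower, with 84.3% of all genes called. SDHA, UQCR10 and UQCRB were no longer called. The log2 difference, C32 GFP minus A375M2 GFP, was -2.43 for ATP5F1D, -1.72 for NDUFA10, -1.70 for NDUFB10, a membrane-arm subunit, and -1.01 for NDUFS7. NDUFA5, an accessory subunit of the matrix arm, was at 14.26 and 14.35 in C32 GFP, against 12.44, 12.76 and 12.50 in A375M2 GFP. It was higher on both C32 arrays, by 1.74 ± 0.09 (SE; limma adjusted p = 1.09e-12), and NDUFB2, another membrane-arm subunit, was higher by 1.25.

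The smallest spreads of group means were 0.28 for UQCRB, 0.30 for ATP5MJ and 0.34 for COX7C, a small complex IV subunit. The probe sets of UQCRB and COX7C average 14.67 and 14.34, near the top of the range, where differences can be compressed. Whether compression narrowed these spreads was not tested, and the values alone do not show stable levels. The UQCRB probe set at 9.31 gave 0.45 in C32 shFHL2 and -0.41 in A375M2 PMEL.

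Genes around the complexes were counted by lists, which were put together with earlier results of these data known. In C32 shFHL2, with 32.3% of all genes higher and 30.4% lower, the complex IV assembly factors rose in 15 of 26 and fell in 2, the complex I assembly factors rose in 10 of 19 and fell in 1, and the citrate cycle and pyruvate dehydrogenase genes rose in 10 of 14 and fell in 2. NDUFAF5, a complex I assembly factor, rose by 1.23, COA6, a copper-delivery factor for complex IV, by 0.82 and IDH3B, a subunit of isocitrate dehydrogenase, by 0.65. The glycolysis genes rose in 4 of 17 and fell in 9, with ENO2, a neuronal-type enolase, at -1.06. In A375M2 shFHL2, with 41.1% of all genes higher and 44.3% lower, the complex I assembly factors rose in 8 of 19 and fell in 9, and the complex IV assembly factors rose in 8 of 26 and fell in 16. The citrate cycle genes fell in 11 of 14 and rose in 3, and the glycolysis genes fell in 11 of 17 and rose in 2. In A375M2 shNFYA, with 43.5% of all genes higher and 43.3% lower, the complex I assembly factors rose in 6 of 19 and fell in 9, the complex IV assembly factors rose in 8 of 26 and fell in 14, the citrate cycle genes rose in 6 of 14 and fell in 8, and glycolysis rose in 2 of 17 and fell in 14.

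CYC1, cytochrome c1 of complex III, was at 11.63, 11.57 and 11.56 in A375M2 shFHL2 and at 11.74, 11.79 and 11.92 in A375M2 shNFYA, against 12.94, 12.87 and 12.89 in A375M2 GFP. Both shRNA groups lay below GFP, with differences of -1.31 and -1.08. In C32 it was at 12.60, 12.61 and 12.59 in shFHL2, against 11.78 and 11.83 in GFP, a rise of 0.79. POLRMT, the mitochondrial RNA polymerase, fell by 2.32 in A375M2 shFHL2 and by 1.56 in A375M2 shNFYA, while TFAM, which packages mitochondrial DNA, rose by 1.00 and 0.93. In C32 shFHL2 POLRMT differed by 0.25 (limma adjusted p = 0.0566) and TFAM rose by 0.56.

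PPARGC1A was at 3.88, 4.77 and 4.01 in A375M2 shFHL2, against 7.07, 7.40 and 7.40 in A375M2 GFP. No shFHL2 array reached a GFP array, and it was called lower (limma adjusted p = 2.12e-11). In A375M2 shNFYA it was at 2.57, 2.57 and 2.20, and was also called lower. Both shRNA groups lie around or under log2 4, at the low end of the range, so no size of fall is given. In C32 shFHL2 it was at 8.37, 8.39 and 8.44, against 9.24 and 9.35 in C32 GFP, with a difference of -0.89. In A375M2 PMEL the difference was -0.48. A link between PPARGC1A and the values of the members was not tested. Of the mitochondrially encoded subunits 4 of 13 listed genes were tested. In A375M2 shFHL2 ND2 fell by 0.86, ND4 fell by 0.64 and ATP6 fell by 0.13, and ND6 rose by 0.20, and in C32 shFHL2 ND6 and ND2 rose while ND4 and ATP6 fell.

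**Figure D5:**
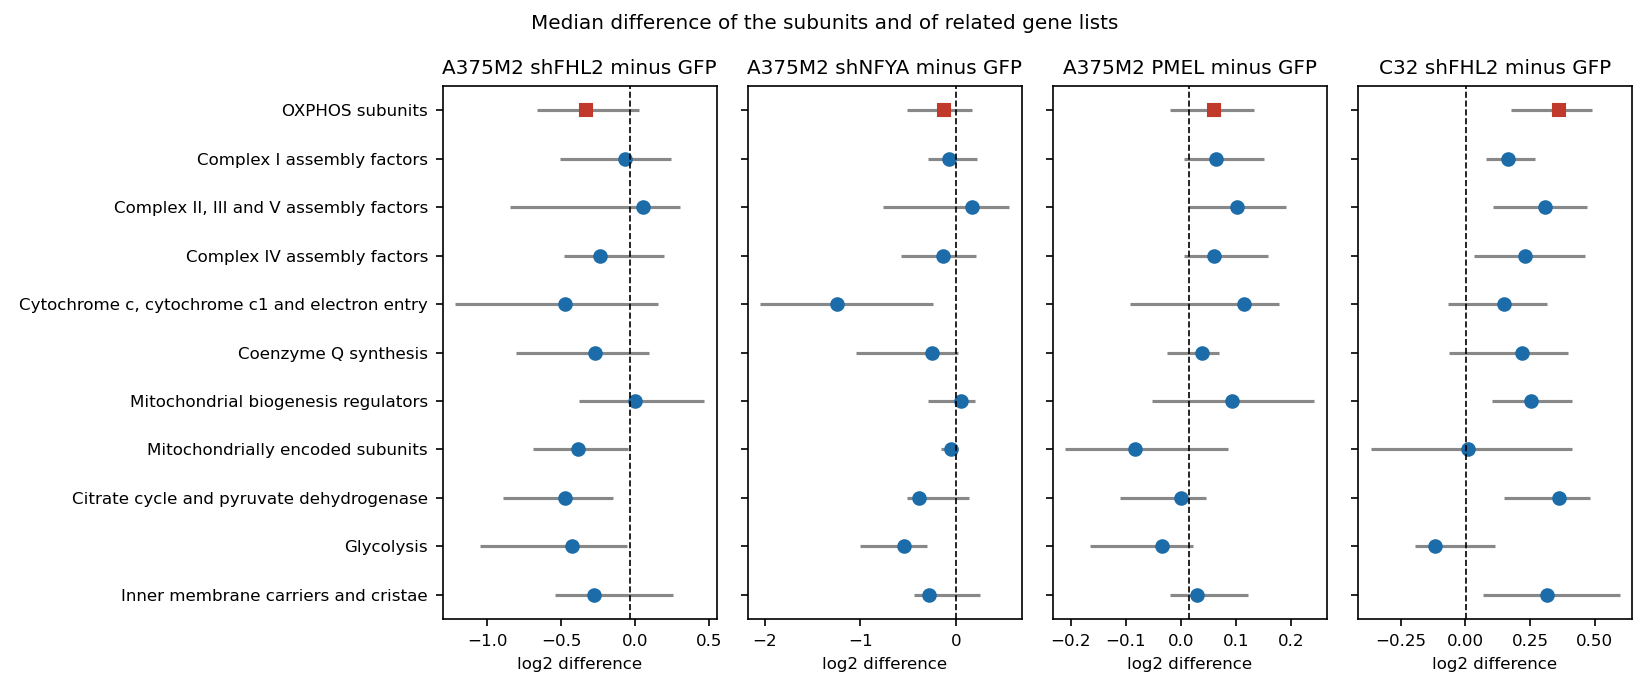
Median log2 difference (symbols) and the range from the first to the third quartile (lines) for the 66 subunits (squares) and 10 related gene lists (circles), in 4 comparisons with different x scales; the dashed line is the median of all genes tested. In C32 shFHL2 the subunits have a median of 0.36 and glycolysis one of -0.12, and in A375M2 shFHL2 they have -0.34 and -0.42.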

How the data were processed

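Total RNA from 18 samples in 6 groups was labelled with a 3′ IVT kit and hybridised to Affymetrix arrays, per the labels' protocols. The deposited table holds log2 values made by the authors with GCRMA (background correction by probe sequence, quantile normalization and summary per probe set), the tool named in the submitters' processing notes, which give no version. The table has 23416 probe sets; 20264 have 1 gene symbol, 995 several and 2099 none, and 58 are controls. Genes were named by Entrez gene ID through RefSeq for 20254 probe sets.

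The probe set with the highest mean stood for a gene, and genes at log2 4 or more on at least 3 of 18 arrays were kept. Groups were compared with limma 3.58.1 in R 4.3.3 (lmFit, then eBayes with a trend) in 1 fit of 17 arrays, with Benjamini-Hochberg adjustment over 10935 genes and calls at an adjusted p under 0.05. C32 GFP replicate 3 was left out. On simulated data the fit recovered 84% of 50 genes changed by log2 0.5 in C32 shFHL2 against C32 GFP, with 9 false calls. In A375M2 shFHL2 against A375M2 GFP it recovered 78% of 50, with 6 false calls. The simulated arrays had independent noise and few changed genes. In the data 62.6% and 85.4% of all genes were called in these comparisons and the fit holds mirrored arrays, so these rates need not carry over. The array number limits precision: 11 residual degrees of freedom were left, of which the mirrored replicate 3 arrays do not give their full share.

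Genes are named by a rule. In each comparison it takes the largest rise and fall called in each complex, all complex II members and COX7B2 with common complex IV isoforms. It adds list genes with the smallest adjusted p, FHL2, NFYA and PMEL, members whose probe sets disagree, and the widest and narrowest ranges. Not all genes it takes in are described in each comparison. Of 24 members with several probe sets, 9 had a probe set of opposite sign in A375M2 shFHL2 against A375M2 GFP, 7 of them called. In C32 shFHL2 against C32 GFP 5 did, 4 of them called. Other members named and the roles used to order them were chosen after their values were seen. Members and lists were chosen with earlier results of these data known. Alternatives covered scaling, filter, probe set choice, the eBayes setting, thresholds, the replicate block and left-out arrays. SDHB was not analysed here.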

Additional observations from a re-analysis of the deposited data

Results flagged for a closer look

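The FHL2 shRNA difference was tested for a difference between C32 and A375M2 with an interaction term in limma, and 61 of 66 members were called. Of these 54 were positive and 7 negative, with 80.2% of all genes called (42.1% positive and 38.1% negative). The largest in each complex and direction, as the C32 difference minus the A375M2 difference on the log2 scale, were NDUFS7 at 1.73 and NDUFC1 at -1.30 in complex I, SDHA at 0.85 and SDHD at -0.26 in complex II, UQCRC1 at 1.75 in complex III, COX6B1 at 1.27 and COX7B2 at -2.95 in complex IV, and ATP5F1D at 2.92 and ATP5MK at -0.14 in complex V. COX7B2 lay at the low end of the range on the C32 arrays, so its value describes A375M2. The A375M2 side of each value crosses the 2 array sets, and group and array set cannot be told apart there.

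COXFA4L3, a relative of the former NDUFA4 that the membership rule does not take in, was chosen after its values were seen. It stood at 6.74, 6.59 and 6.68 in A375M2 shFHL2 and at 8.94, 8.62 and 8.57 in A375M2 shNFYA, against 2.20 on the 3 A375M2 GFP arrays, at the low end of the range. The fitted log2 differences were 4.47 and 6.5, and since the GFP arrays lie at that low end they are no measured folds.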

How the results depend on the processing

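The counts of called members stayed within 1.5 times the main count under all alternatives run except a 2-fold threshold, which left 7 members in A375M2 shFHL2, 1 in A375M2 PMEL and 5 in A375M2 shNFYA against A375M2 GFP, 0 in A375M2 shFHL2 against shNFYA, 0 in C32 shFHL2, 12 in C32 GFP against A375M2 GFP and 20 in the difference between the lines (limma). Leaving out 1 array at a time gave 53 to 55, 24 to 30, 55 to 57, 51 to 55, 55 to 60, 55 to 60 and 60 to 63 in that order.

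For 109 named differences 30 alternatives were set against the main fit, the 2-fold threshold not among them. A change of sign was counted only where the main fit or the alternative made a call. By that rule 3199 values stayed the same, 36 lost the call, 19 gained it and 16 turned sign. Uncalled values that changed sign are within the 3199. COX7A2 in A375M2 shFHL2, for example, was -0.0178 in the main fit and 0.0081 without both replicate 3 arrays. With each array centred, COX7A2 in A375M2 shFHL2 became 0.11, COX4I1 in A375M2 shNFYA 0.0225 and COX7B 0.14 where C32 GFP is set against A375M2 GFP. With the probe set of largest variance, SDHC became -0.995 in A375M2 shFHL2, -1.66 in A375M2 shNFYA, 0.67 in shFHL2 against shNFYA and -0.0888 between the GFP groups of the lines. COX7B became -0.17 in A375M2 PMEL and 1.18 between these GFP groups, and COX4I1 became 0.34 between them. With the mean of all probe sets, SDHC became -0.28, -0.44, 0.16 and -0.0854 in the same 4 comparisons, and COX4I1 and COX7B became 0.015 and 0.56 between the GFP groups. The cause was not tested.

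No pairing of the samples by replicate number was seen, but this check cannot exclude shared experiments. Of 40 same-numbered pairs of arrays from different groups 0 had deviations correlated above 0.1. The lowest, -0.999 over the genes tested, is the pair of A375M2 GFP and PMEL replicate 3 described above. With the replicate block 55, 27, 56, 52, 57, 58 and 61 members were called.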
